A study of Mus musculus with 22 samples.

Results

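The caveola genes are 9 genes whose proteins build caveolae, the small flask-shaped pits of the plasma membrane. They are the caveolins Cav1, Cav2 and Cav3, the cavins Cavin1 (Ptrf), Cavin2 (Sdpr) and Cavin3 (Prkcdbp), and the membrane-shaping proteins Ehd2, Pacsin2 and Pacsin3. They were chosen by name, as 9 of 47628 rows of the count table of white adipose tissue (WAT) and 9 of 55327 rows of the table of striatum, and the family was picked because Cav2 had been seen to be lower in WAT 24 h after thyroid hormone (TH). All values of WAT at 24 h are therefore a description. They are given without a p, and the counts of calls at that time support nothing. All 9 genes passed the filter on low counts in WAT and 8 did in striatum, where Cav3 was too low to be tested. RNA was sequenced from 22 libraries of wild-type C57BL/6J mice, labelled as males of 8 weeks. The controls were labelled as hypothyroid after 2 weeks of propylthiouracil (PTU, which blocks the making of TH), with 4 libraries in WAT and 2 in striatum. The other groups were labelled only by TH and a time, 6 h and 24 h in WAT and 12 h and 24 h in striatum, with 4 libraries each. For both tissues the study gives a single injection of both forms of TH. In WAT it followed PTU in the food, whereas for striatum the study's overview names no step to make the mice hypothyroid. For striatum, only the labels therefore speak of PTU. The labels do not name the fat depot, and nothing states that libraries of a group came from separate animals, so the p-values measure the spread between libraries.

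Caveolae are abundant in adipocytes and in the endothelium and smooth muscle of vessels. Cav1 forms the inner coat of the pit together with Cav2, which needs Cav1 to reach the cell surface, and Cav3 takes the place of Cav1 in muscle. The cavins form the outer coat, of which Cavin1 is the essential subunit. Ehd2 is an ATPase that sits at the neck of the pit and holds it at the surface, and the pacsins are F-BAR proteins that bend the membrane. In fat, caveolae hold the insulin receptor and proteins that take up fatty acids, and they serve as a store of membrane for cells that swell and shrink.

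Total counts per library ran from 17.29 to 26.95 M in WAT and from 8.045 to 10.15 M in striatum. In WAT the 12 libraries differed widely in skeletal muscle RNA, and the summed level of 12 muscle genes ran from 94.8 to 27629 counts per M (CPM). In striatum, replicate 2 at 24 h had the lowest summed level of 10 genes of striatal projection neurons (364 CPM, against 2600 to 6804 in the other 9 libraries) and the highest level of 9 genes of cortical excitatory neurons (2833 CPM, against 486 to 1747). The 12 h libraries also differed from PTU, with striatal sums of 2600 to 4182 against 4444 to 6437 CPM. Their cortical sums were 1132 to 1747 against 486 to 904 CPM. Replicate 4 at 24 h (3173 and 1619 CPM) lay within the 12 h ranges. The part of these differences in the striatum changes was not tested. All 4 striatum libraries at 24 h, replicate 1 at 12 h and PTU replicate 6 had high Xist and almost no Ddx3y, although the labels give male animals. The other 4 striatum libraries had the reverse. Adipocyte markers were abundant in every WAT library, with a sum of 16380 CPM or more for 10 genes. The striatum changes are given with and without replicate 2 at 24 h. All 4 libraries at 24 h had high Xist, so that type could not be left out there, and a covariate for this library type was fitted instead.

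The 2 genes of the caveolin pair lie next to each other. On GRCm38, Cav2 is at chr6:17281185-17289115 and Cav1 at chr6:17306335-17341452, both on the plus strand and 17.2 kb apart. The 250 bases before a RefSeq start of each gene are shown, the only one listed for Cav2 and the first of 2 for Cav1. They were picked because Cav2 was the member whose level correlated best with that of Cav1 over the WAT libraries. That correlation holds the 24 h values by which the family was chosen, and pairs without Cav1 or Cav2 were not compared. Capitals mark the GC box GGGCGG on either strand. The windows are chr6:17280935-17281184 for Cav2 and chr6:17306085-17306334 for Cav1, both 5′ to 3′ on the plus strand of GRCm38.p6.
Cav2: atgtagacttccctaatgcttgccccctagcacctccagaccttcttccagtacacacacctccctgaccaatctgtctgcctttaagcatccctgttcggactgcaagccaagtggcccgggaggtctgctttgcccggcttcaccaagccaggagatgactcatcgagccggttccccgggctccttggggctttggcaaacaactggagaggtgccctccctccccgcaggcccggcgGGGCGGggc
Cav1: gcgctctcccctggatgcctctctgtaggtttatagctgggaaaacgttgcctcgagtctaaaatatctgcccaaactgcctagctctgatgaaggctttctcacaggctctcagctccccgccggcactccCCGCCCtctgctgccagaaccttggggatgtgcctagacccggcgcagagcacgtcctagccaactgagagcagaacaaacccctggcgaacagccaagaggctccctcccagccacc
All motifs were searched on both strands. The Cav2 window held 1 GC box, 9 bases before the start, and 1 CCAAT box. The Cav1 window held 1 GC box, 118 bases before the start, and 1 TATAAA element on the minus strand. That element reads tttata in the sequence shown and lies far upstream, 221 bases before the start. The second Cav1 window (chr6:17307390-17307639) held none of the motifs searched. Neither window shown held AGGTCA, the half-site that TH receptors bind, or its direct repeat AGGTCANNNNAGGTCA. Of 32851 mouse promoter windows of this length in the RefSeq table, 14.02% held AGGTCA on either strand, 0.01522% the direct repeat, 32.74% the GC box, 33.85% CCAAT and 12.37% TATAAA. The table had windows for 8 of the 9 genes, Cavin3 being the exception, and 13 in all. AGGTCA was found in 1 of them for Cav3, 165 bases before the start, and in 1 of 3 for Pacsin2, 56 bases before it. These matches are letters in a window and say nothing of binding.

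To compare the genes with each other, counts per M were divided by the length of all annotated exons in kb. In WAT under PTU, Cav1 was the most abundant member by this measure, at 357 ± 53.9 counts per kb per M (SD, n = 4). Cavin1 followed at 119 ± 30.4, Cavin3 at 110 ± 26.1, Cav2 at 107 ± 23.0, Cavin2 at 97.1 ± 13.9 and Ehd2 at 84.5 ± 17.6. Each of these 5 overlapped its neighbour in this order, and only Cav1 stood clear of them. Pacsin2 (9.96 ± 1.71), Pacsin3 (5.48 ± 1.95) and Cav3 (2.54 ± 2.93) lay below. In striatum under PTU (n = 2) the levels were far lower, with Cav1 at 18.1 ± 1.14, Cavin3 at 14.6 ± 0.411 and Cav2 at 14.04 ± 3.67 counts per kb per M, and with Cavin1 (3.61), Ehd2 (3.58), Cavin2 (3.05), Pacsin2 (2.42) and Pacsin3 (0.734) behind them. The tables of both tissues were made separately and with different gene annotations, so levels between tissues are set side by side without a test. Within each table, Cavin1 and Cavin2 stood near Cav2 in fat and well under it in striatum.

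The first question was whether TH changed the caveola genes of WAT within 6 h. At that time Cavin3 and Pacsin3 were called lower and the other 7 members did not pass the test. The call of Pacsin3 was kept in only 5 of 12 fits that left out 1 library. With the 6 h and PTU groups alone, and with a replicate block, Cavin3 was the only member called. With the quasi-likelihood test of edgeR, 2 of 9 members (22.2%) were called at an adjusted p under 0.05, both lower, whereas 7.23% of all 17928 genes tested were called and 3.05% were called and lower. At an unadjusted p under 0.05 edgeR gave 6 of the 9 members, beside 4557 of the 17928 genes tested. The members had a median log2 change of -0.35, and all genes tested had a median of -0.03. The comparison shares its PTU libraries with the value by which the family was chosen. Only Cavin3 had 6 h libraries entirely apart from the PTU libraries, a separation found for 13.9% of all genes.

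Cavin3, a cavin also known as SRBC that has been described as a partner of clock proteins, showed the clearest change. Its gene is at chr7:105480083-105482300 on the minus strand. The PTU libraries had 4628, 4828, 3002 and 3257 normalised counts (replicates 1 to 4), the 6 h libraries 1774, 1606, 1790 and 1774, and the 24 h libraries 2199, 2249, 1542 and 2521. Every library after TH was below every PTU library, and the 6 h libraries were tightly grouped. At 6 h the level was 55.8% lower than under PTU (log2 change -1.18 ± 0.17 SE, edgeR adjusted p = 0.00178, lower in 4 of 4 libraries), and the call was made in each of 12 fits that left out 1 library. At 24 h it was 45.8% lower (log2 change -0.88 ± 0.17, given as a description), and the 24 h libraries overlapped those at 6 h. The annotated gene Gm45667 overlaps exons of Cavin3 on the opposite strand, and since the strand setting of the counting is not stated, reads of the pair cannot be told apart.

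Pacsin3, the pacsin that is most abundant in muscle, lies at chr2:91255954-91264679 on the plus strand. It had 665, 376, 330 and 665 normalised counts under PTU, 256, 241, 361 and 264 at 6 h, and 251, 263, 198 and 252 at 24 h. PTU replicates 1 and 4 were high, and 1 library at 6 h lay above the lowest PTU library. The log2 change at 6 h was -0.86 ± 0.23 (edgeR adjusted p = 0.039). The call was lost in 7 of 12 fits that left out 1 library (PTU replicate 1 or 4, replicate 1, 2 or 4 at 6 h, and replicate 1 or 4 at 24 h), with adjusted p-values of 0.0556 to 0.0992, and also with the 6 h and PTU groups alone (adjusted p = 0.0921). PTU replicates 1 and 4 were also the PTU libraries rich in muscle RNA, with 11272 and 27629 CPM for the muscle genes against 202 and 265 in replicates 2 and 3. With the muscle level as a covariate, the log2 change at 6 h was -0.55 (adjusted p = 0.0123). Gm17281 overlaps exons of Pacsin3 on the opposite strand.

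**Figure D1:**
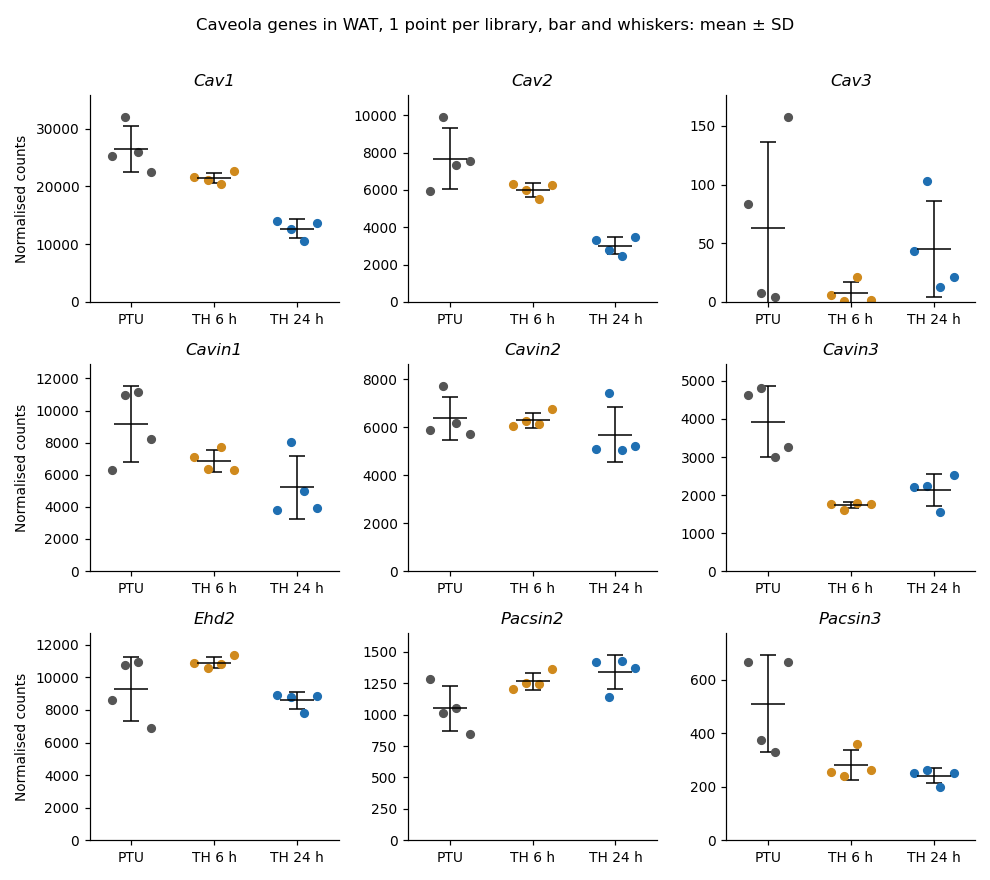
Normalised counts (vertical axes, from 0) of the 9 caveola genes in WAT, with 1 point per library in replicate order and the mean ± SD of each group of 4 as a bar with whiskers, which are clipped at 0 for Cav3. Cav1 and Cav2 libraries at 24 h lie below those at 6 h, Cavin3 libraries at both times lie below all PTU libraries, and Cavin2 overlaps across the groups.

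The caveolins Cav1 and Cav2 leaned lower at 6 h without being called, and were lower at 24 h. Cav1 had 25293, 31990, 25893 and 22543 normalised counts under PTU, 21690, 21165, 20480 and 22613 at 6 h, and 14001, 12592, 10491 and 13679 at 24 h. Cav2 had 5917, 9896, 7345 and 7538 under PTU, 6334, 5973, 5498 and 6253 at 6 h, and 3297, 2801, 2472 and 3475 at 24 h. For both genes the 6 h libraries overlapped the PTU libraries and the 24 h libraries were below all of the other 8. At 6 h the log2 change was -0.30 ± 0.13 for Cav1 (edgeR unadjusted p = 0.0374, adjusted p = 0.17). For Cav2 it was -0.35 ± 0.15 (edgeR unadjusted p = 0.0392, adjusted p = 0.174). At 24 h Cav1 was 52.0% lower than under PTU (log2 change -1.06 ± 0.13) and Cav2, the gene by which the family was chosen, was 60.8% lower (log2 change -1.35 ± 0.16). From 6 h to 24 h Cav1 was lower by 0.76 ± 0.13 and Cav2 by 1.00 ± 0.15 on the log2 scale. The 24 h libraries were those that served to choose the family, so these values are given without a p.

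The 24 h counts of calls are a description as well. With edgeR, 5 of 9 members fell under the adjusted p of 0.05 at 24 h, all lower than under PTU (Cav1, Cav2, Cavin1, Cavin3 and Pacsin3). The 5 include Cav2, the gene by which the family was chosen, so nothing is read from this count. DESeq2 and the scaling by library totals also called Pacsin2, which was higher. Over all genes 17.1% were called and 9.62% were called lower. The members had a median log2 change of -0.82, beside 0.00 for all genes tested. The libraries at 24 h and under PTU did not overlap for 4 members, Cav1, Cav2, Cavin3 and Pacsin3, and for 19.3% of all genes. Against 6 h, Cav1 and Cav2 were called lower, beside 7.41% of all genes called and 4.35% called lower, and the libraries did not overlap for Cav1, Cav2 and Ehd2, beside 21.8% of all genes.

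Cavin1, which caveolae cannot form without, was more variable. Its gene is at chr11:100956733-100970887 on the minus strand. It had 6281, 10973, 11173 and 8239 normalised counts under PTU, 7124, 6365, 7711 and 6287 at 6 h, and 3804, 8062, 5004 and 3956 at 24 h. The groups overlapped at both times, because of PTU replicate 1 and of replicate 2 at 24 h. The log2 change was -0.42 ± 0.24 at 6 h (adjusted p = 0.295) and -0.82 ± 0.24 at 24 h. Over the fits that left out 1 library the change at 24 h lay between -1.11 and -0.69, and 7 of those 12 fits called it. The 5 that did not were those without PTU replicate 2 or 3 and without replicate 1, 3 or 4 at 24 h. It was not called with library totals (-0.79), with the 2 groups alone (-0.82) or with the muscle covariate (-0.76) either.

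Cavin2, a cavin of endothelium and fat that binds phosphatidylserine, lies at chr1:51289126-51302960 on the plus strand. It had 5880, 7706, 6167 and 5725 normalised counts under PTU, 6044, 6251, 6144 and 6745 at 6 h, and 5095, 7416, 5068 and 5196 at 24 h. Its log2 change was -0.02 ± 0.14 at 6 h (adjusted p = 0.953; with library totals alone as the scaling it was 0.08) and -0.16 ± 0.14 at 24 h. Ehd2, the ATPase of the neck, lies at chr7:15946958-15967567 on the minus strand. It had 8594, 10751, 10956 and 6864 normalised counts under PTU, 10887, 10589, 10821 and 11355 at 6 h, and 8934, 8788, 7791 and 8837 at 24 h. The change from PTU was 0.23 ± 0.14 at 6 h (adjusted p = 0.304) and -0.11 ± 0.14 at 24 h on the log2 scale, and the 24 h libraries were all below the 6 h libraries. Pacsin2, the widely expressed pacsin, lies at chr15:83375607-83464606 on the minus strand. It had 1284, 1014, 1054 and 847 normalised counts under PTU, 1207, 1252, 1241 and 1364 at 6 h, and 1416, 1140, 1424 and 1371 at 24 h. Its log2 change was 0.27 ± 0.12 at 6 h (adjusted p = 0.176) and 0.35 ± 0.12 at 24 h. At 24 h it was called higher by DESeq2 (0.35), with library totals (0.40) and without PTU replicate 1 (0.46) or replicate 2 at 24 h (0.42). Without PTU replicate 1, the highest of its group, the change at 6 h was 0.39 (adjusted p = 0.0338).

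Ratios within a library do not depend on its scaling. Counts per kb of exon were set against those of Cav1 in the same library. Ehd2 stood at 23.6% ± 3.41 of Cav1 under PTU, 34.2% ± 0.907 at 6 h and 45.8% ± 3.28 at 24 h (SD, n = 4 each). Cavin2 went from 27.2% ± 1.03 to 33.0% ± 1.10 and 51.2% ± 11.8. Pacsin2, far lower, went from 2.82% ± 0.560 to 4.135% ± 0.160 and 7.50% ± 1.39. For all 3 of these genes the libraries of the 3 groups did not overlap. Pacsin3 stood at 1.60% ± 0.727, 1.04% ± 0.239 and 1.52% ± 0.103, and overlapped PTU at both times. Cavin3 stood at 30.8% ± 5.70, 16.8% ± 1.03 and 34.6% ± 3.65, so that its 6 h libraries lay below all others. Cav2 stood at 30.0% ± 4.43, 28.9% ± 1.02 and 24.5% ± 1.34. Cavin1, at 33.3% ± 7.28, 30.8% ± 4.07 and 40.3% ± 16.7, overlapped throughout. These ratios share Cav1 and were not tested. At 24 h the log2 change from PTU was -1.06 for Cav1 itself, -0.11 for Ehd2, -0.16 for Cavin2 and 0.35 for Pacsin2. The 24 h ratios thus hold the lower Cav1 of the libraries that served to choose the family. The share of all genes whose ratio to Cav1 separates the groups was not computed.

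**Figure D2:**
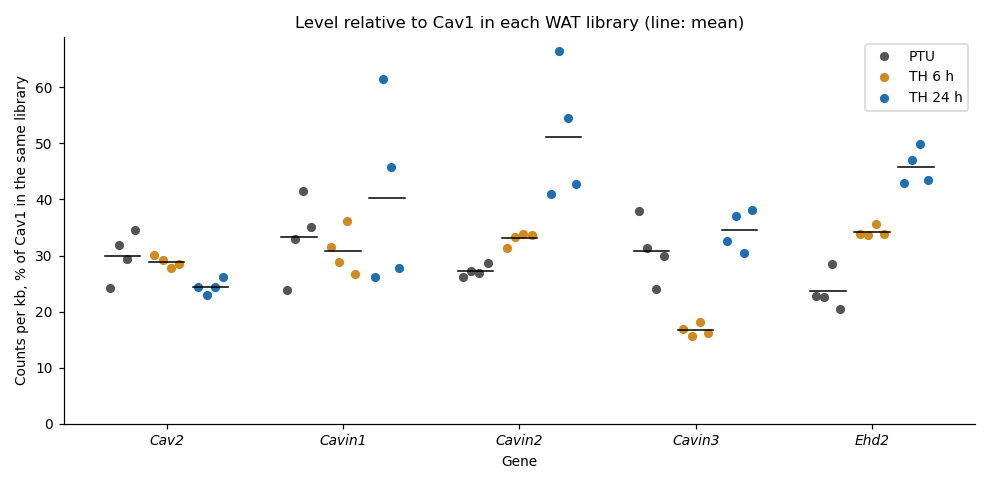
Level of 5 caveola genes as a percentage of Cav1 in the same WAT library (vertical axis, counts per kb of exon, from 0), with 1 point per library and a line at the mean of each group of 4. Ehd2 and Cavin2 are higher against Cav1 at each time, Cavin3 is lowest at 6 h, and Cavin1 overlaps. The pacsins and Cav3 are not shown.

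Cav3, the muscle caveolin, lies at chr6:112459505-112472872 on the plus strand. It had 84, 7, 5 and 157 normalised counts under PTU, 6, 1, 21 and 2 at 6 h, and 43, 103, 13 and 21 at 24 h. The libraries differed by far more than the groups. The log2 change at 6 h was -3.16 ± 1.16 (edgeR adjusted p = 0.118), and with the muscle level as a covariate it was -1.12 (adjusted p = 0.106). Over the 12 WAT libraries, the log2 level of Cav3 followed the log2 summed level of the skeletal muscle genes, with a Pearson r of 0.960 and a Spearman rho of 0.958. This relation is a description without a p, since it holds the 24 h libraries and Cav3 is itself a gene of muscle. Without the 2 libraries farthest from the median muscle level r was 0.973, and over deviations from the group means it was 0.977. Cavin4 (Murc), the cavin of muscle, which is no member of the list, gave an r of 0.936 and a rho of 0.958. Its r was 0.920 without the same 2 libraries, and 0.972 over deviations. Pacsin3 gave an r of 0.411 and a rho of 0.322 over the 12 libraries. Its r was 0.462 without the 2 libraries, and 0.946 over deviations from the group means. At 6 h and 24 h the library with the most muscle RNA had the highest Pacsin3. Only PTU replicate 1 (11272 CPM of muscle genes, 665 normalised counts of Pacsin3) had 24 h libraries near its muscle level. These were replicate 1 (9332 CPM, 251) and replicate 2 (14841 CPM, 263) at 24 h. A difference at like muscle levels was not tested.

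**Figure D3:**
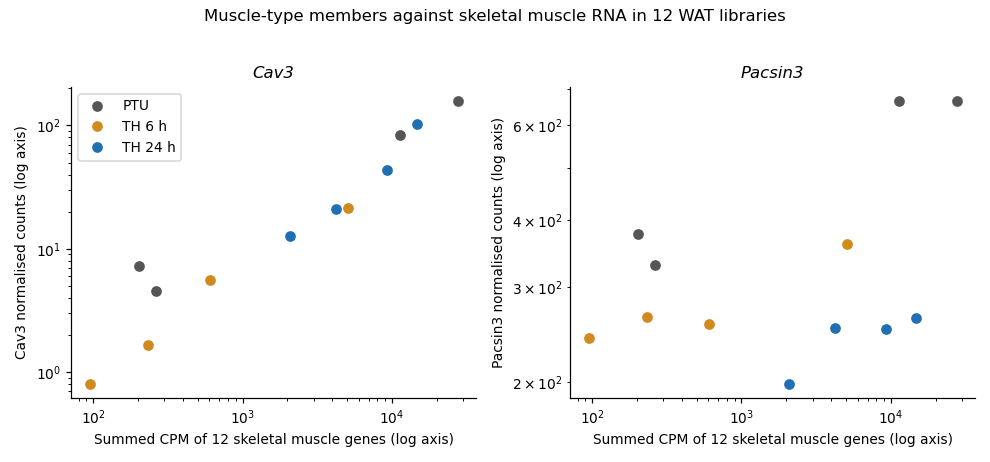
Normalised counts of Cav3 and Pacsin3 (vertical log axes) against the summed CPM of 12 skeletal muscle genes (horizontal log axes), with 1 point per WAT library. Cav3 rises with muscle RNA across all 12 libraries, whereas for Pacsin3 the 4 PTU libraries, at 330 or more, lie above all 24 h libraries.

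Among all 17927 other genes tested in WAT, Cav2 had the second highest Pearson r with Cav1 over the 12 libraries (r = 0.978, log2 CPM). The 5 genes most like Cav1 were Heph (0.980), Cav2, Cpd (0.977), Bche (0.976) and Rnf141 (0.976). Those most like Cav2 were Scn7a (0.981), Cav1, Cdkl2 (0.977), Rnf141 (0.975) and Hspa12a (0.972). Of the other members, Cavin1 ranked 1845 by likeness to Cav1 (r = 0.684), Pacsin3 2707, Cavin3 3104, Cavin2 3470, Ehd2 3888, Cav3 12027 and Pacsin2 15322 (r = -0.539). These correlations hold the group differences by which the family was chosen and share libraries and depth. Over deviations from the group means the order by likeness to Cav1 changed. Cav2 ranked 92 (r = 0.787), Ehd2 200 (r = 0.740), Cavin3 205 (r = 0.736) and Cavin1 9603 (r = 0.022). Cavin2 ranked 2066, Pacsin2 6868, Pacsin3 15155 and Cav3 15901. By likeness to Cav2, Cav1 ranked 340 on that scale, Ehd2 3562, Cavin3 3844, Cavin2 5524 and Cavin1 8363. Pacsin2 then ranked 13468, Pacsin3 14314 and Cav3 14514. On that scale the leading genes were Clec14a (0.929), Zc4h2, 4930578C19Rik, Sergef and Epha4 (0.880) for Cav1, and Snhg18 (0.952), Zfp58, Zfp383, Myl4 and Faim (0.931) for Cav2.

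The protein-coding neighbours of the Cav2 and Cav1 pair were also read. Tes, before Cav2, had 222 ± 34.3 normalised counts under PTU, 265 ± 59.6 at 6 h and 286 ± 17.4 at 24 h (SD, n = 4), and was called at neither time. Met, a growth factor receptor after Cav1, had 1014 ± 230 under PTU, 987 ± 73.6 at 6 h and 632 ± 75.8 at 24 h. Its log2 change was -0.04 ± 0.14 at 6 h and -0.68 ± 0.15 at 24 h, with the 24 h libraries below all PTU libraries. Met was looked at after the values of Cav1 and Cav2 had been seen.

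Relatives of the family were read from a list of 10 genes (the other EHD and pacsin proteins, Cavin4, dynamins and flotillins). At 6 h 1 of 10 was called, Ehd1, an EHD protein of endosome recycling, which was lower (1612 ± 46.2 normalised counts against 2530 under PTU, log2 change -0.65 ± 0.14, edgeR adjusted p = 0.0146), and the median of the list was -0.33. At 24 h Dnm3 (log2 change -0.86 ± 0.23), Flot1 (-0.45 ± 0.13) and Ehd1 (-0.43 ± 0.14) were lower and Ehd3 was higher (0.86 ± 0.18), with a median of -0.35. In a list of 15 proteins that caveolae hold or bind, 3 were called at 6 h, all higher, with a median of 0.07. They were Aoc3, an amine oxidase of the adipocyte surface (22063 against 13542 normalised counts under PTU, log2 change 0.70 ± 0.15, adjusted p = 0.0136), Scarb1, the receptor of high-density lipoprotein (0.44 ± 0.11, adjusted p = 0.037), and Insr, the insulin receptor (0.29 ± 0.08, adjusted p = 0.0428). At 24 h Aoc3 was higher (0.98 ± 0.15) and 3 were lower, Abca1, which exports cholesterol (-1.01 ± 0.13), Cd36, which takes up fatty acids (-0.86 ± 0.14), and Bmpr2 (-0.71 ± 0.12), with a median of 0.10. Over all genes tested 7.23% were called at 6 h (4.18% higher, 3.05% lower) and 17.1% at 24 h (7.45% higher, 9.62% lower). The lists' genes were chosen from knowledge of caveolae with earlier results of these data known.

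Markers of the cells that carry caveolae were read beside the family. Over all genes 7.23% were called at 6 h (3.05% lower) and 17.1% at 24 h (9.62% lower). Fewer cells of a type and less RNA per cell cannot be told apart in bulk tissue. Of 10 adipocyte markers, 0 were called at 6 h and 6 were lower at 24 h, among them Cidec (log2 change -1.87 ± 0.34), Adipoq (-1.17 ± 0.12) and Plin1 (-0.89 ± 0.14). Their summed level was 26584.5 to 34364 CPM under PTU, 24261 to 28078 at 6 h and 16380 to 22078 at 24 h, with none at 0 in any library. The 12 endothelial markers summed to 686 to 1030 CPM under PTU, 613 to 761 at 6 h and 618 to 810 at 24 h. Of these, 1 was lower at 6 h (Cldn5, log2 change -1.87 ± 0.45) and 0 at 24 h, when the median log2 change was -0.26. The 9 markers of smooth muscle and pericytes summed to 341 to 526, 382 to 474 and 351 to 405 CPM, with 0 called at 6 h and 1 (Rgs5) lower at 24 h of 8 tested. The 9 fibroblast markers summed to 1888 to 4249, 1449 to 2044 and 1558 to 2087 CPM, with 3 lower at each time. None of 12 skeletal muscle genes was called at either time, and their sums overlapped (202 to 27629 under PTU, 94.8 to 5116 at 6 h, 2082 to 14841 at 24 h). Their median log2 change was nonetheless -2.83 at 6 h and -0.46 at 24 h. Of the 7 epithelial genes tested 0 were called at 6 h and 3 were lower at 24 h, with sums of at most 159 CPM. The part of these cell types in the values of Cav1, Cav2 and Cavin3 was not tested.

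The same 9 genes were then read in striatum, where caveolae belong mainly to blood vessels. None of the 8 members tested was called at 12 h or at 24 h against PTU, or between these times. Over all 15827 genes tested 0.96%, 0.348% and 0.0% were called in these comparisons. At an unadjusted p under 0.05 edgeR gave 2 members at 12 h (Cav1 and Pacsin2), 2 at 24 h (Cav1 and Cavin1) and 0 between the times. DESeq2 and all other settings called none. The members' median log2 change was -0.04 at 12 h, -0.07 at 24 h and -0.02 between the times, beside 0.01, 0.02 and 0.01 for all genes.

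Cav1 had 612 and 560 normalised counts under PTU, 435, 476, 420 and 557 at 12 h, and 512, 504, 485 and 441 at 24 h. Every library after TH lay below both PTU libraries, by a small margin. The log2 change at 12 h was -0.31 ± 0.12 (edgeR adjusted p = 0.185). At 24 h it was -0.27 ± 0.12, with an adjusted p of 0.506. Cavin1 had 124 and 120 under PTU, 112, 90, 103 and 94 at 12 h, and 87, 83, 89 and 101 at 24 h, again with all libraries after TH below the PTU libraries. Its log2 change at 12 h was -0.28 ± 0.14 (adjusted p = 0.268). At 24 h it was -0.43 ± 0.14, with an adjusted p of 0.325. Cav1 and Cavin1 were the 2 of 8 members whose groups did not overlap at 12 h and at 24 h, and 36.4% and 18.2% of all genes did not overlap in these comparisons. Between 12 h and 24 h all 8 members overlapped, and 8.3% of all genes did not.

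Vessel markers were read beside these values. The 9 markers of smooth muscle and pericytes summed to 347 to 361 CPM under PTU, 254 to 310 at 12 h and 299 to 333 at 24 h. By this sum the libraries after TH lay below both PTU libraries. Of all single genes, 36.4% at 12 h and 18.2% at 24 h did not overlap PTU. The 12 endothelial markers summed to 249 to 259 CPM under PTU, 215 to 244 at 12 h and 246 to 271 at 24 h, when they overlapped PTU. The 9 fibroblast markers summed to 166 to 197, 140 to 179 and 127 to 164 CPM, and the 8 astrocyte markers to 5254 to 5939, 4921 to 5518 and 6504 to 8120 CPM. None of these markers was called, nor any striatal or cortical neuron marker, and the part of vessel content in the values of Cav1 and Cavin1 was not tested.

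Cav2 in striatum had 522 and 359 normalised counts under PTU, 416, 500, 434 and 450 at 12 h, and 394, 893, 343 and 400 at 24 h. The value of 893 belongs to replicate 2, the library with the highest sum of cortical neuron markers. The log2 change at 24 h was 0.20 ± 0.33 (edgeR adjusted p = 0.879) with this library and -0.23 without it (adjusted p = 0.715). At 12 h it was 0.03 ± 0.33 (adjusted p = 0.97). The same library had the highest Pacsin3 of the tissue, at 89, and 7 normalised counts of Cav3, which had at most 1 in the other 9 libraries. A count of 3 is the floor used here, so Cav3 was not detectable in those 9 at this depth.

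Pacsin3 had 25 and 35 normalised counts under PTU, 33, 60, 39 and 71 at 12 h, and 32, 89, 31 and 65 at 24 h, with log2 changes of 0.76 ± 0.47 (adjusted p = 0.395) and 0.85 ± 0.47 (adjusted p = 0.612). Pacsin2 had 103 and 121 under PTU, 115, 185, 138 and 240 at 12 h, and 120, 154, 106 and 117 at 24 h, with changes of 0.60 ± 0.27 (adjusted p = 0.241) and 0.15 ± 0.27 (adjusted p = 0.887). For both pacsins the groups overlapped. Cavin3 had 233 and 224 under PTU, 183 to 248 at 12 h and 163 to 249 at 24 h, with log2 changes of -0.06 ± 0.17 (adjusted p = 0.888) and -0.13 ± 0.17 (adjusted p = 0.833). Cavin2 lay between 61 and 96 normalised counts and Ehd2 between 141 and 197 over all 10 libraries. Their changes were -0.16 ± 0.18 and -0.21 ± 0.18 for Cavin2, and -0.02 ± 0.15 and 0.00 ± 0.15 for Ehd2, at 12 h and 24 h. The sign for Ehd2 at 24 h turned with the scaling.

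Without replicate 2 at 24 h, the log2 change of Pacsin3 at 24 h was 0.51 (edgeR adjusted p = 0.79) in place of 0.85, and that of Pacsin2 was 0.020 in place of 0.15. Cav1 was then at -0.31, Cavin1 at -0.41, Cavin2 at -0.27, Cavin3 at -0.19 and Ehd2 at 0.030. With the covariate for library type, the changes at 24 h were -0.20 for Cav1, 0.37 for Cav2, -0.49 for Cavin1, -0.22 for Cavin2, -0.16 for Cavin3, 0.020 for Ehd2, 0.30 for Pacsin2 and 0.99 for Pacsin3. At 12 h that covariate left Cav1 at -0.35, Cavin1 at -0.26, Pacsin2 at 0.48 and Pacsin3 at 0.64. No member was called in these fits.

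**Figure D4:**
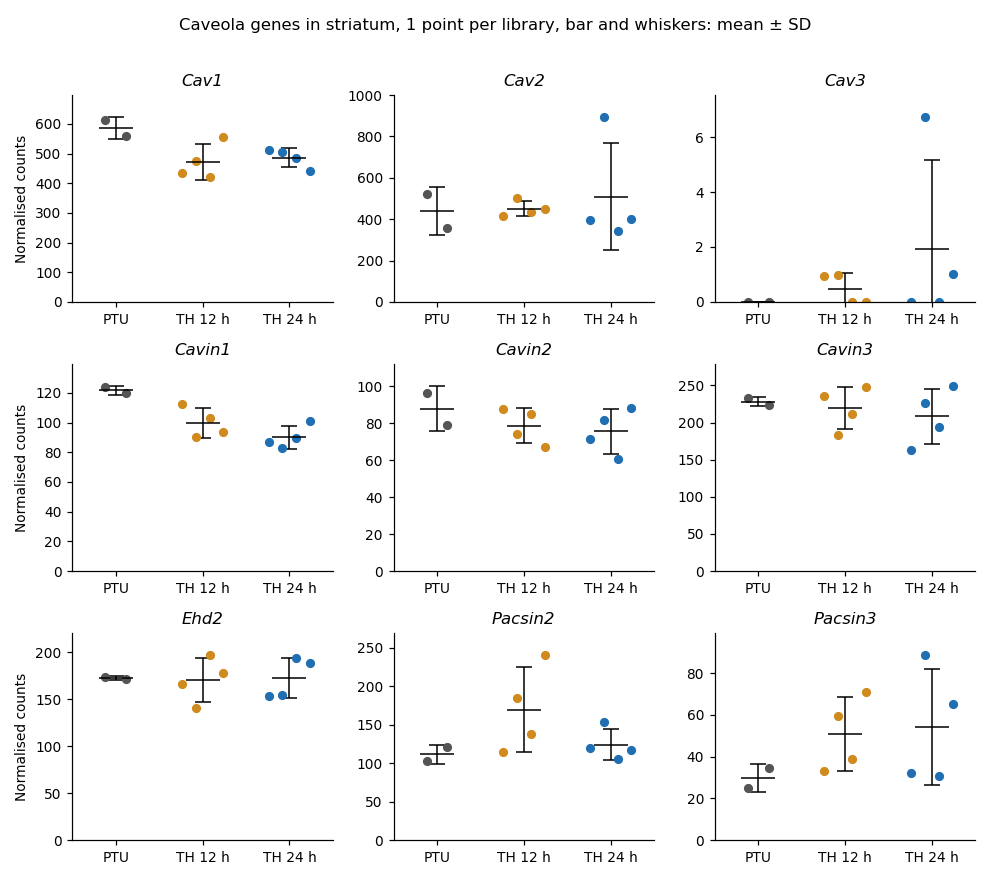
Normalised counts (vertical axes, from 0) of the 9 caveola genes in striatum, with 1 point per library in replicate order and the mean ± SD as a bar with whiskers (2 PTU libraries, 4 at each time), which are clipped at 0 for Cav3. Cav1 and Cavin1 lie a little below PTU at both times, and 1 library at 24 h, replicate 2, stands out for Cav2, Cav3 and Pacsin3.

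Of the 9 relatives tested in striatum and of the 14 cargo and partner genes tested there, 0 were called at 12 h, at 24 h or between the times. Side by side, the log2 change of Cavin3 at the first time was -1.18 ± 0.17 in WAT (6 h) and -0.06 ± 0.17 in striatum (12 h), and that of Cav1 was -0.30 ± 0.13 and -0.31 ± 0.12. At 24 h Cav2 stood at -1.35 ± 0.16 in WAT and 0.20 ± 0.33 in striatum. The times, tables and numbers of controls differ between the tissues, and the difference was not tested.

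**Figure D5:**
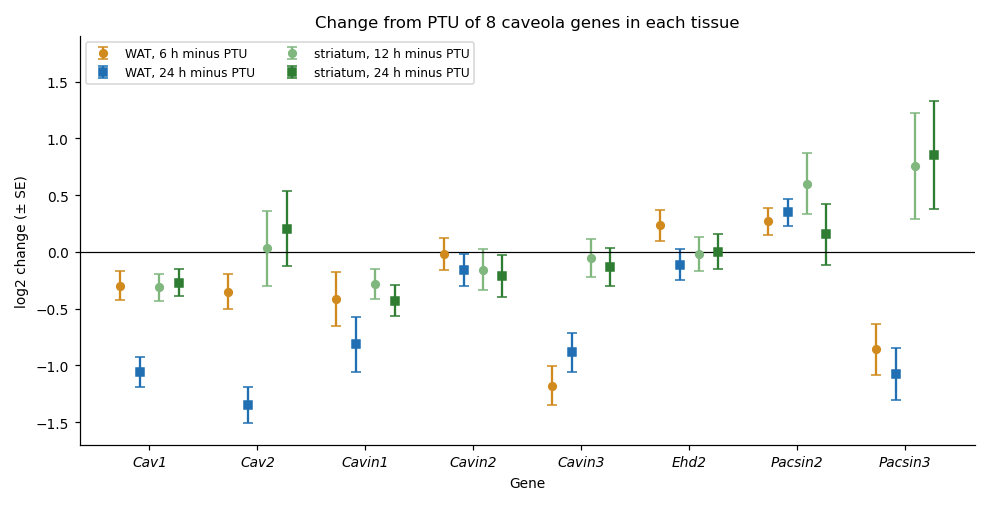
Log2 change from PTU (vertical axis, ± SE) of 8 caveola genes in WAT at 6 h and 24 h and in striatum at 12 h and 24 h, from the edgeR fit of each tissue. Cav3 is left out because it was not tested in striatum. Cavin3 and Pacsin3 are below 0 at both times in WAT, Cav1 and Cav2 are lowest at 24 h in WAT, and all striatum values lie within 1 of 0.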

How the data were processed

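RNA was extracted with Trizol (WAT) or RNeasy columns (striatum), and libraries of total RNA were made with the Lexogen SENSE kit. For each tissue the authors deposited a table of raw read counts, made per the study's methods with Bowtie (Bowtie2 2.2.6.2 in the submitters' processing notes) on GRCm38 and htseqcount, after removal of alignments of low quality. Annotation release and strand setting are not given in the sources used here. Gene symbols of WAT are of an older annotation, and cavins were matched under both names. Rows whose symbol had become a date (15 in WAT, 14 in striatum) were removed, at most 0.201% of a library's counts.

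Each tissue was fitted alone with edgeR 4.0.16 and limma 3.58.1 under R 4.3.3, with 3 groups in 1 model, TMM scaling, genes with a mean normalised count above 10, a two-sided quasi-likelihood F test and Benjamini-Hochberg adjustment over all genes tested. Genes were called at an adjusted p under 0.05, whatever their fold change. Counts were normalised to the mean effective library size of the tissue. The SE of a log2 change is its size over the square root of F. The study used DESeq2, tried here as an alternative (1.42.0), beside its size factors, library totals, no filter, 2 groups alone, each library left out, a replicate block, a muscle covariate (WAT) and a covariate of Xist against Ddx3y (striatum). The fit was tested on simulated counts. Depth and the number of libraries limit precision, and striatum libraries held fewer counts.

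Gene positions and exon lengths are from GENCODE M21 and promoter windows from RefSeq (GRCm38.p6). All 9 members were named. Of relatives and cargo, up to 4 called genes per list and comparison with the largest change were named, and for likeness the 5 genes of highest Pearson r (log2 CPM, prior count of 2). Members and lists were chosen with earlier results of these data known. Muscle relations were computed in scipy 1.17.1 and are given without a p. No pair of replicates agreed within counting noise. Same-numbered libraries deviated with r from -0.472 to 0.394 in WAT and from -0.395 to 0.267 in striatum, so numbers do not pair libraries.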

Additional observations from a re-analysis of the deposited data

Results flagged for a closer look

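Within groups of 4 libraries, 5 values of single members stood far from the rest of their group, of 45 groups examined, where about 1 in 20 is flagged by chance. In striatum at 24 h, replicate 2 was the highest library for Cav2 (893 normalised counts, next 400.3) and for Cav3 (6.73, next 1.00). That library also had the highest sum of cortical neuron markers and the lowest of striatal projection neuron markers, and their part in these values was not tested. In WAT at 24 h, replicate 2 was the highest library for Cavin2 (7416, next 5196) and replicate 3 the lowest for Ehd2 (7791, next 8788). In WAT at 6 h, replicate 2 was the lowest library for Cavin3 (1606, next 1774), in a group whose whole range was narrow.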

How the results depend on the processing

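Striatum had 2 controls, less depth than WAT and under 100 normalised counts for some members, which limits the precision there. Cavin3 in WAT at 6 h was called under all 19 alternatives, with a log2 change from -1.29 to -1.06. The count of members called in WAT at 6 h was 1 with the 2 groups alone and 1 with the replicate block, and it ran from 1 to 2 when 1 library was left out, as Pacsin3 was lost. In the other comparisons the count of members called stayed within 1.5 times the main count, from 4 to 6 in WAT at 24 h, 2 to 3 between 6 h and 24 h, and 0 in striatum. The replicate block, fitted in WAT and between 12 h and 24 h in striatum, changed no other count. No paired analysis was possible in striatum against PTU because the groups share fewer than 2 replicate numbers.

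Signs turned for Cavin2 and Cav3 in WAT and for Cav2, Cavin3 and Ehd2 in striatum. In WAT at 6 h Cavin2 was 0.080 with library totals and 0.012 with the 2 groups alone, and ran from -0.040 to 0.088 when 1 library was left out. Cav3 in WAT at 24 h ran from -1.27 to 0.51, the latter without PTU replicate 4. In striatum at 12 h, Cav2 was -0.026 with the covariate of library type, and the changes without 1 library ran from -0.21 to 0.32 for Cav2, from -0.13 to 0.012 for Cavin3 and from -0.10 to 0.052 for Ehd2. At 24 h they ran from -0.23 to 0.49 for Cav2 and from -0.059 to 0.054 for Ehd2, which was -0.0065 with DESeq2, -0.0010 with its size factors, -0.059 with library totals and -0.0039 with the 2 groups alone. The cause was not tested.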
